A study of Arabidopsis thaliana with 8 samples.

Results

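Phaseic acid (PA) was set against its parent hormone, abscisic acid (ABA), at the same dose and time in whole seedlings of Arabidopsis thaliana, Columbia ecotype. The comparison rests on 4 of the 8 libraries of the series, 2 from seedlings given 50 µM PA for 3 h and 2 from seedlings given 50 µM ABA for 3 h, with 2 mock libraries as the level from which each response was measured. All seedlings were wild type, 10 days old and raised on MS medium under continuous light, and the labels call the libraries of each group biological duplicates. The mock group is labelled as exposed to nothing, and its solvent is not given in the sources used here. The remaining 2 libraries, from seedlings given dihydrophaseic acid (DPA), entered only the shared estimate of spread. Genes were joined by locus: of 32678 listed loci, 24759 had any value above 0, and the 19617 whose mean over the 8 libraries reached 10 normalized counts were tested for PA against ABA.

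ABA accumulates in plants under water deficit and in maturing seeds. It binds PYR/PYL receptors, which then hold the clade A protein phosphatases 2C (PP2C), so that SnRK2 kinases are freed to phosphorylate bZIP factors of the ABF/ABI5 family, and these bind ABRE elements in promoters of protective proteins. CYP707A cytochromes P450 hydroxylate ABA at its 8′ methyl carbon, and the product closes into a ring to give PA, so the compounds differ by an oxidised methyl group joined back to the ring.

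The values are normalized counts, that is, reads of a gene divided by the size factor of its library. The deposited files give group means, from which the whole reads of both libraries of each group were recovered. The libraries held 11.5 to 15.9 M reads on genes, with size factors of 1.17 and 0.855 for PA, 1.15 and 0.816 for ABA and 0.979 and 0.917 for mock. The replicate numbers of the recovered libraries are not known, so within each group the library of higher size factor is called a and comes first in every sentence of values, and the other is called b. The mock libraries stood farther apart than the others: the SD of the log2 difference between the libraries of a group was 0.302 with PA, 0.324 with ABA and 0.449 in mock, and 262, 332 and 792 genes differed at least 2-fold within those pairs. Markers of both leaf and root were present, with LHCB1.3, a light-harvesting protein of leaf mesophyll, at 127601 and 133015 normalized counts with PA, against 101550.0 and 119514 with ABA and 124113 and 149454 in mock. PYK10, a beta-glucosidase of roots, had 39356 and 26779 normalized counts with PA, against 20874 and 23128 with ABA and 31181 and 29031 in mock. Because these are whole seedlings, fewer cells of a type and less RNA per cell cannot be told apart.

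At most ABA-responsive genes PA was called apart from ABA by limma and not from mock in the authors' deposited table. Against ABA, 2469 genes were lower with PA and 1440 were higher (limma, Benjamini-Hochberg adjusted p under 0.05), which is 12.6% and 7.34% of the 19617 tested, and 895 and 340 of them differed more than 2-fold. Together they make 3909 genes (19.9%). Both PA libraries lay outside the range of both ABA libraries at 12045 genes (61.4%), so groups that do not overlap are common here. At an unadjusted p under 0.05, 6313 genes differed. With upper-quartile scaling, which moved the median of all genes to 0.08, against -0.01 with the deposited size factors (log2), 1940 were lower and 2396 higher, so the share of lower calls was 44.7% in place of 63.2%. The counts were 1519 lower and 725 higher without PA a, 1562 and 734 without PA b, 1439 and 792 without ABA a, and 1500 and 873 without ABA b. A normal test on the deposited fold changes of PA and ABA, with errors implied by the deposited p-values, called 743 lower and 257 higher, and it no longer called 84 of the 192 named genes that it covered and limma had called. In the authors' deposited tables PA differed from mock at 318 of 23985 genes (1.33%; 283 higher, 1.18%, and 35 lower, 0.146%), and ABA at 3713 of 24069 (15.4%; 2481 higher, 10.3%, and 1232 lower, 5.12%). Both of these share the mock libraries.

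All 8 genes with the largest falls with PA relative to ABA were higher with ABA than in mock, and PA was called over mock at 3 of them. SAG29 (AT5G13170), a sugar transporter of senescing leaves, had 45.4 and 64.3 normalized counts with PA, against 2372 and 2666 with ABA and 27.6 and 27.3 in mock. Both PA libraries lay above both mock libraries and more than an order of magnitude under both ABA libraries. The log2 difference from ABA was -5.51 ± 0.18 (SE, limma adjusted p = 5.84e-07). ATHSP22.0 (AT4G10250), a small heat shock protein, had 1.71 and 3.51 with PA, 240.1 and 208 with ABA and 0 and 1.09 in mock. Its log2 difference of -6.01 ± 0.63 was the largest fall among called genes averaging 50 normalized counts or more over the PA and ABA libraries, and only a few reads stood behind its PA and mock values. UGT74E2 (AT1G05680, chr1:1703002-1704838 in TAIR10.1), a glucosyltransferase of the auxin precursor indole-butyric acid, had 27.4 and 23.4 with PA, 823 and 749.6 with ABA and 4.09 and 16.4 in mock, with PA -4.90 from ABA on the log2 scale. ACS7, an enzyme of ethylene synthesis, had 2.57 and 11.7 with PA, 196 and 143 with ABA and 2.04 and 5.45 in mock. RAP2.6, an ERF transcription factor, had 43.7 and 43.3 with PA, 1047 and 1086 with ABA and 14.3 and 1.09 in mock, and the PA libraries stood between mock and ABA. AT2G32020, annotated as an acyltransferase, and AT3G02480, a LEA-family protein, lay -4.96 and -4.62 from ABA on the log2 scale. In the normal test the calls of ATHSP22.0, AT2G32020 and ACS7 were lost (its adjusted p = 0.558, 0.548 and 0.273).

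Of the 8 largest rises with PA relative to ABA, 7 were genes that ABA lowered in the authors' deposited table. ATPMEPCRD (AT2G43050), a pectin methylesterase-type protein of the cell wall, had 272 and 152 normalized counts with PA, against 6.96 and 14.7 with ABA and 167 and 301 in mock. PA and mock overlapped, and both ABA libraries were lower, giving a log2 difference of 4.19 ± 0.39 (SE; limma adjusted p = 8.87e-05). IMS2, an enzyme of methionine chain elongation in the glucosinolate pathway, had 205 and 265 with PA, 26.1 and 24.5 with ABA and 432 and 271 in mock. PYL4, an ABA receptor, lay 2.46 above ABA on the log2 scale, and AT3G06070 and the dirigent-like gene AT4G11190 lay 2.36 and 2.38 above it. The peroxidase AT4G11290 had 113 and 97.03 with PA, 8.70 and 19.6 with ABA and 279 and 188 in mock. HAK5, a high-affinity potassium transporter of roots, had 362 and 261 with PA, 39.1 and 50.2 with ABA and 578 and 228 in mock, with its PA values inside the wide span of the mock pair. In the normal test the calls of ATPMEPCRD and HAK5 were lost (its adjusted p = 0.127 and 0.502). AT1G15125, a methyltransferase-like gene, was 3.43 above ABA, but it overlaps AT1G15120 on the same strand, whose read density would account for 32.9% of its count.

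Each ABA-responsive gene was placed by the authors' deposited calls against mock and by the limma test of PA against ABA. Of the 2481 genes that ABA raised, 2414 were in the test, and PA was called higher than mock at 273 of them (11.3%, against 1.18% of all genes in the deposited PA table, with the mock libraries shared). These 273 split into 224 genes between mock and ABA, 48 that were not told apart from ABA, and 1 beyond ABA. At 1779 genes (73.7%) the response was lost, meaning that PA was not called against mock and was called lower than ABA. The other 362 could not be placed, since PA was called against neither, and none was reversed. The split depends on the test: with the normal test in place of limma, 573 raised genes were lost and 1548 were not placed. Not being called against mock does not place a gene at mock. The 95% limma interval of PA minus mock lay inside 2-fold at 1433 of the 1779 lost genes and inside 1.5-fold at 988. Limma called 88 of the lost genes against mock. In group means PA stood on the same side of mock as ABA at 1620 of the 1779. Without PA a 1214 were lost, without PA b 1254, without ABA a 1165 and without ABA b 1209, with the deposited calls kept. When limma calls replaced the deposited ones, PA was called the same way at 358 raised genes, 136 without PA a, 119 without PA b, 232 without ABA a, 231 without ABA b and 685 without mock b.

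On the scale of normalized counts, the raised genes between mock and ABA had a median share kept close to that of the lost genes. Their median ABA response was larger. The share kept is the difference of PA from mock as a percent of the difference of ABA from mock, on the scale of normalized counts. Its median was 16.8% in the 224 genes between mock and ABA and 15.05% in the 1779 lost genes, while their median log2 fold change with ABA was 3.44 and 1.01. With PA their median log2 fold changes over mock were 1.48 and 0.22. The share of the log2 fold change was not compared between these classes. Over all 2414 raised genes the median share kept was 17.7%, with quartiles of 10.2% and 28.1%, and 592 genes kept under 10% and 113 kept at least 50%. As a share of the log2 fold change the median was 28.0%. The 48 genes not told apart from ABA had a median share of 50.9%, and the half-width of their 95% interval of PA minus ABA had a median of 0.82 on the log2 scale, against 0.28 for the lost genes. PA stood on the opposite side of mock from ABA at 162 raised genes and above ABA at 5, in group means.

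Most genes that ABA lowered counted as lost with PA, a class set by the calls and not by an absent fall. Of 1232 such genes, 1226 were in the test, and PA was called lower than mock at 34 (2.77%, against 0.146% of all genes). Of these, 24 lay between mock and ABA and 10 were not told apart from ABA. At 904 genes (73.7%) the fall was lost, 287 could not be placed, and 1, MYB29, was reversed. Without PA a 590 were lost, without PA b 590 and without ABA a 601. With limma calls in place of the deposited ones PA was called the same way at 57 lowered genes, 13 without PA a, 8 without PA b, 38 without either ABA library, 26 without mock a and 350 without mock b. The median share kept was 35.2% (quartiles 18.9% and 49.6%), and 27.8% of the log2 fold change, close to the 28.0% of raised genes on that scale. The interval of PA minus mock lay inside 2-fold at 808 of the 904 lost genes and inside 1.5-fold at 619. In group means PA stood on the same side of mock as ABA at 785 of the 904. Their median share kept was 27.9% (quartiles 11.4% and 39.8%). With the normal test in place of limma, 227 lowered genes were lost and 956 were not placed. Among genes that ABA moved at least 2-fold, PA was called the same way at 271 of 1352 raised genes and 29 of 441 lowered ones. Whether raised and lowered genes differ in the share kept was not tested.

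**Figure D1:**
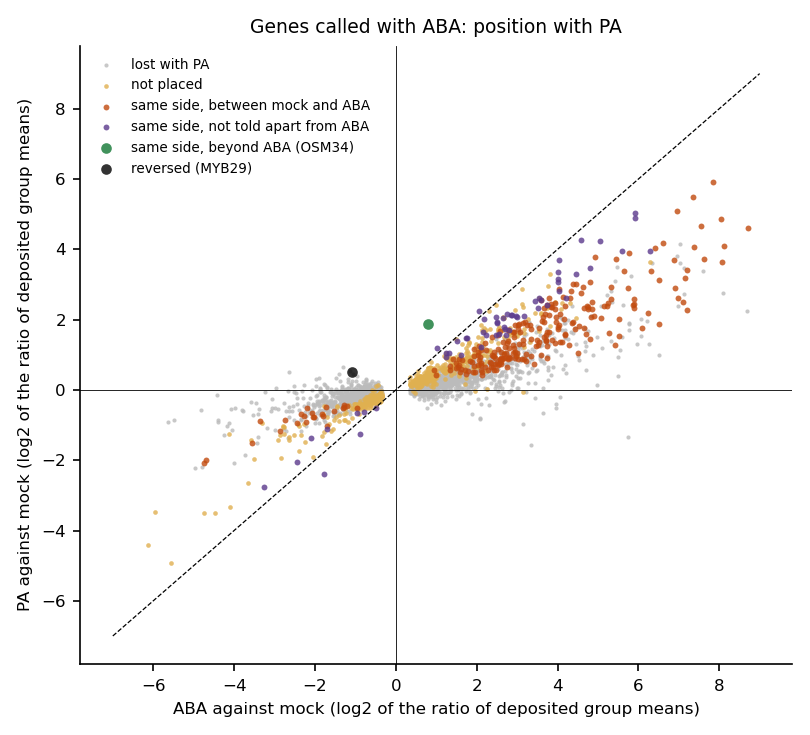
Log2 fold change over mock with PA (vertical axis) against that with ABA (horizontal axis) for tested ABA-called genes, coloured by class, from deposited group means. Drawn are 3626 genes, and 14 with a group mean of 0 are left out. The axes share the mock means. The dashed line marks equal responses. Genes on the same side, between mock and ABA, lie mostly at large ABA responses, OSM34 lies above the dashed line, and MYB29 is the reversed point.

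On the scale of normalized counts, protective proteins, the textbook targets of ABA, mostly kept a small part of their ABA response. Over all raised genes the median share kept was 17.7% on that scale and 28.0% as a share of the log2 fold change. RD29B (AT5G52300, chr5:21237021-21239531 in TAIR10.1), a hydrophilic stress protein used as an ABA marker, had 863 and 813 normalized counts with PA, against 26232 and 24838 with ABA and 137 and 208 in mock. Both PA libraries stood above both mock libraries and far below both ABA libraries: ABA was 30.4 times PA, a log2 difference of -4.93 ± 0.20 (SE; limma adjusted p = 1.34e-06), and 2.62% of the response was kept. LEA7 (AT1G52690), a late embryogenesis abundant (LEA) protein, had 465 and 599 with PA, 11588 and 11550.2 with ABA and 34.7 and 51.2 in mock. KIN1 (AT5G15960), a small cold- and ABA-induced protein, had 232 and 291 with PA, 3755 and 4752 with ABA and 18.4 and 11.99 in mock. In all of these genes the groups did not overlap and PA was called over mock in the authors' deposited table. KIN1 and KIN2 are near-identical neighbours, and reads may have been split between them in counting.

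The 250 bases before the start of 5 genes are shown because they hold the ABRE core, ACGTG, in genes on either side of the call against mock: PA was called over mock at RD29B, LEA7 and KIN1 and was not at ATHSP22.0 and UGT74E2. On the scale of normalized counts the share kept is small on both sides of that call, with 2.62% at RD29B and 1.96% at UGT74E2. The sequences are from RefSeq (TAIR10.1, 5′ to 3′ on the strand of the gene), and capitals mark ACGTG on either strand. They span chr5:21236771-21237020 for RD29B, chr1:19619474-19619723 for LEA7, chr5:5209467-5209716 for KIN1 and chr4:6370088-6370337 for ATHSP22.0, all on the plus strand, and chr1:1704839-1705088 for UGT74E2 on the minus strand. The core matched 4 times before RD29B, 5 times before LEA7 and once before each of the others. At LEA7 the palindrome CACGTG is counted on both strands. No annotated gene other than the named one reached into these windows. A match is a description of letters, not of a bound site.
RD29B: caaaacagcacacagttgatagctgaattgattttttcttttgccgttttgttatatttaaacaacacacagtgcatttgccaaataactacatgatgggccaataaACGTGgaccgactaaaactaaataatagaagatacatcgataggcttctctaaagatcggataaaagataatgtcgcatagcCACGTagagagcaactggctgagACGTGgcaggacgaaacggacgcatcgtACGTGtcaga
LEA7: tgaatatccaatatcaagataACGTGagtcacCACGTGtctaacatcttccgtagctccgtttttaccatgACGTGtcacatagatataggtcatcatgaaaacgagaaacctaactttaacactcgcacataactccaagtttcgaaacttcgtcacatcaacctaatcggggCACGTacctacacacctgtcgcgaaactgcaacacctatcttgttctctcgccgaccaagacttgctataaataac
KIN1: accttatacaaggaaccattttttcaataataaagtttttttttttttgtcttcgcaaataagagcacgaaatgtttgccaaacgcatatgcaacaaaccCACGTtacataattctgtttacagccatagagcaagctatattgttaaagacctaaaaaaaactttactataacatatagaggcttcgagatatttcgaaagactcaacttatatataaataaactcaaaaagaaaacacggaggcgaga
ATHSP22.0: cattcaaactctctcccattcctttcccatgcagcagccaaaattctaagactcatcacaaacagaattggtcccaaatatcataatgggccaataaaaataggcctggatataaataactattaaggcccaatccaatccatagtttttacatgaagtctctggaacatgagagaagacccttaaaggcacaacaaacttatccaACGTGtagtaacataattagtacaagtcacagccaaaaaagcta
UGT74E2: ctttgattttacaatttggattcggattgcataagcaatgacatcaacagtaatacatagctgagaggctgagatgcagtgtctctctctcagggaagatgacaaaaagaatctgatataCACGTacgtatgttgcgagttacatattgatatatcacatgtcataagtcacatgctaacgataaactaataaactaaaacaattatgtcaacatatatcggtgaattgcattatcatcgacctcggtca

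PA stayed below ABA at nearly all members of the protective lists. All 10 COR/RD genes, cold- and dehydration-responsive genes, were lower with PA than with ABA, beside the 12.6% of all genes. PA was called over mock at 7 of them, beside 1.18% of all genes and 11.3% of tested genes that ABA raised. Their median log2 difference was -2.75, against -0.01 over all genes tested, and their median share kept was 7.14%. RD29A, the neighbour of RD29B on the chromosome, had 3372 and 3351 with PA, 34491 and 39136 with ABA and 568 and 699.9 in mock. RD22, a dehydration-responsive gene whose protein lies in the cell wall, had 8653 and 7722 with PA, 26161 and 24623 with ABA and 7119 and 6768 in mock, and its response was lost with 6.74% kept. COR15B was no longer called against ABA without PA b (0.0605) or ABA b (0.0706), where the values in parentheses are limma adjusted p, here and in each sentence of this form.

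Of 7 dehydrins, water-binding proteins of drying cells, 6 were lower with PA than with ABA, beside 12.6% of all genes. PA was called over mock at 5 of the 7, beside 1.18% of all genes and 11.3% of tested genes that ABA raised. COR47 had 6865 and 7772 normalized counts with PA, against 42069 and 46914 with ABA and 3743 and 3650.0 in mock. RAB18, an ABA-induced dehydrin, had 552 and 575 with PA, 11451 and 8745 with ABA and 205 and 264 in mock, with 3.34% of the response kept, and LTI30 kept 9.48%. XERO1, with 29.97 and 14.03 with PA, 46.1 and 29.4 with ABA and 3.06 and 5.45 in mock, was not called between PA and ABA (log2 interval -1.93 to 0.31). Of 11 LEA genes 10 were tested and 9 were lower with PA, beside the same 12.6% of all genes. PA was called over mock at 6 of the 9, beside the same 1.18% and 11.3%, and the median share kept was 12.2%. LEA4-5 had 202 and 246 with PA, 3099 and 3545 with ABA and 14.3 and 19.6 in mock. EM6, a seed LEA protein, was no longer called against ABA without any single PA or ABA library (0.123 to 0.228), SAG21 without PA a (0.103), ABA a (0.077) or ABA b (0.0598), and the dehydrin HIRD11 without any single PA or ABA library (0.0983 to 0.229).

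**Figure D2:**
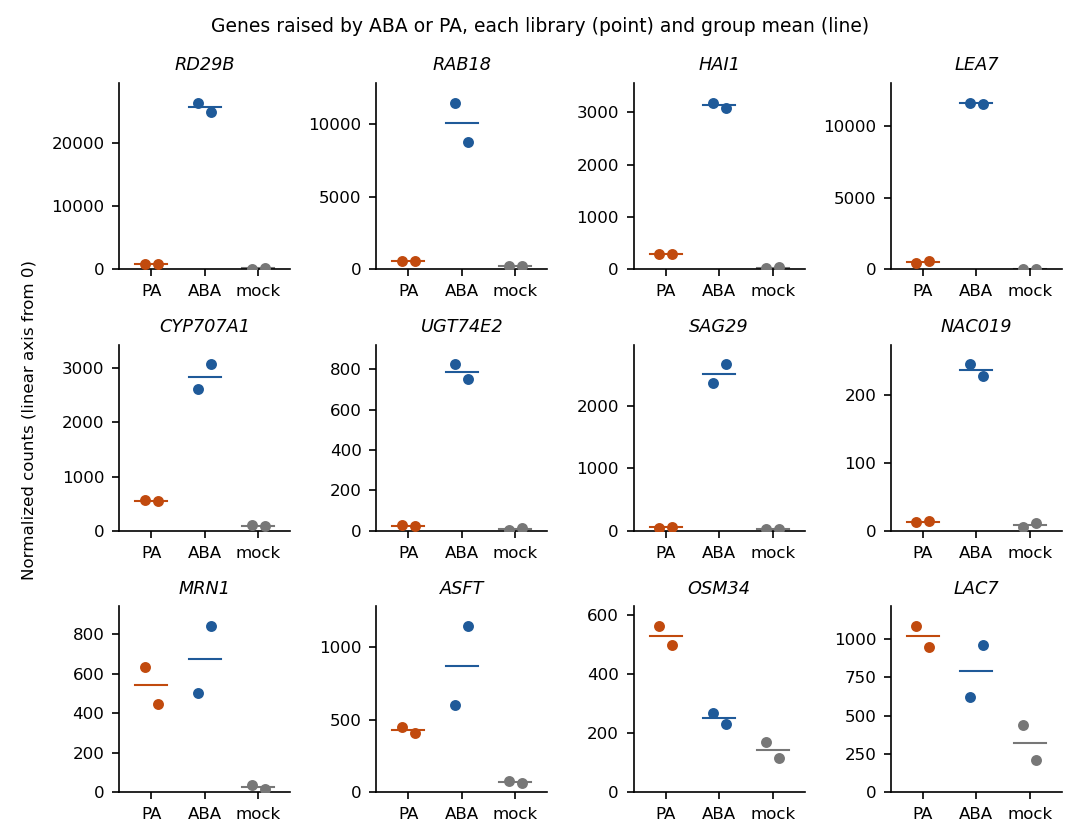
Normalized counts per library (linear axes from 0) with PA, ABA and mock for genes raised by ABA or PA, 1 point per library and a line at each group mean. PA lies between mock and ABA at RD29B, with 863 and 813 with PA, 26232 and 24838 with ABA and 137 and 208 in mock. It lies above mock but far closer to mock than to ABA at SAG29 and NAC019, and above ABA at OSM34.

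Genes of proline and galactinol, compatible solutes of dry cells, were mostly lower with PA than with ABA. Of all genes 12.6% were lower and 7.34% higher. P5CS1, the rate-limiting enzyme of proline synthesis, had 4414 and 4102 normalized counts with PA, against 14783 and 16026 with ABA and 1629.5 and 2812 in mock. GOLS2, a galactinol synthase that feeds raffinose synthesis, had 824 and 810.2 with PA, 3719 and 3441 with ABA and 238 and 309.6 in mock. Both lay between mock and ABA with PA, with 15.5% and 16.4% kept. ProDH1, which breaks proline down, had 440.2 and 367 with PA, 501 and 546 with ABA and 1074 and 862 in mock: PA was at least as low as ABA, and the groups were not told apart by limma (log2 interval -0.65 to -0.10, adjusted p = 0.0577). DIN10, a raffinose synthase family gene, was lowered by both and lay 1.87 ± 0.11 (SE) above ABA with PA on the log2 scale. Of the 7 tested members of 9, 5 were lower and 1 higher with PA than with ABA, and these calls held in all 4 fits that left out a PA or ABA library.

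The clade A PP2C phosphatases act as brakes on the pathway. All 9 genes were lower with PA than with ABA, beside 12.6% of all genes. Their median log2 difference was -2.39 and their median share kept was 10.2%. ABI1 (AT4G26080) had 1236 and 1141 normalized counts with PA, against 4619.7 and 4137 with ABA and 609.9 and 678 in mock. HAI3 had 30.8 and 46.8 with PA, 626 and 717 with ABA and 1.02 and 2.18 in mock, and HAI1 had 295 and 303 with PA, 3178 and 3085 with ABA and 18.4 and 50.1 in mock. At ABI1, ABI2, HAB1, AHG3, HAI1, HAI2 and HAI3 both PA libraries stood above both mock libraries, and PA was called over mock in the authors' deposited table. PA was called over mock at 1.18% of all genes and at 11.3% of tested genes that ABA raised. HAB2 counted as lost because PA was not called against mock in the authors' deposited table. It had 769 and 774 with PA, 1707 and 1624 with ABA and 567 and 599 in mock. Both of its PA libraries stood above both mock libraries, and its share kept, 17.4%, was the highest of the 9 genes. AHG1, a PP2C of seeds, was near the limit of detection with 6.85 and 4.68 with PA, 38.3 and 35.5 with ABA and 0 and 2.18 in mock, and its call against ABA was lost without any single PA or ABA library (0.131 to 0.202).

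Of 14 receptor genes 9 were tested, and ABA lowered 7 of them in the authors' deposited table, beside 5.12% of all genes. With PA, 5 of the 9 were higher than with ABA and none was lower, beside the 7.34% of all genes called higher. PYL4 (AT2G38310, chr2:16049918-16051356) had 962 and 1176 normalized counts with PA, against 202 and 184 with ABA and 2089 and 1892 in mock. The PA libraries stood midway between mock and ABA without overlap with either, a log2 difference of 2.46 ± 0.12 from ABA (SE; limma adjusted p = 2.55e-06) and of -0.90 from mock (adjusted p = 1.69e-08 in the authors' deposited table). PYL5 had 57.4 and 67.8 with PA, 22.6 and 15.9 with ABA and 146 and 136 in mock and also kept part of its fall, 64.5%. PYR1, PYL1 and PYL8 lost theirs: PYL8 had 548 and 597 with PA, 271 and 267 with ABA and 613 and 675 in mock, with 18.98% kept. PYL2 and PYL6, called lower with ABA, could not be placed (PA minus ABA 0.28 to 1.73 and 0.48 to 2.73). PYL7 and PYL9 were not called in either comparison with mock, and PYL7 overlaps a gene on the opposite strand. All 5 receptor calls held in the 4 fits that left out a PA or ABA library.

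The kinases and bZIP factors that act between phosphatases and promoters were mixed. Of 10 SnRK2 genes, 4 were lower and 2 higher with PA than with ABA, beside 12.6% and 7.34% of all genes. SNRK2.6, the guard cell kinase OST1, had 345 and 344 normalized counts with PA, against 938 and 875 with ABA and 274 and 318 in mock. PA was near mock, and the ABA response was lost here and at SNRK2.7, SNRK2.1 and SNRK2.10. The higher calls, SNRK2.8 and SNRK2.5, were lost without PA a (0.242), ABA a (0.139) or ABA b (0.141) for SNRK2.8 and without any single PA or ABA library (0.0592 to 0.182) for SNRK2.5, and SNRK2.5 overlaps a gene on the opposite strand. Of 8 tested members of the ABF/ABI5 family 5 were lower with PA, beside 12.6% of all genes. ABF2, ABF3 and GBF3 lay between mock and ABA. ABF3 had 896 and 893 with PA, 2986 and 2970.2 with ABA and 355 and 433 in mock, with 19.4% kept. ABI5, the factor of seed and seedling arrest, had 55.7 and 21.04 with PA, 211 and 194 with ABA and 18.4 and 25.1 in mock and lost the response. All 4 AFP genes, whose products bind ABI5 and dampen its action, were lower with PA: AFP1 and AFP3 stayed above mock, whereas AFP2, with 181 and 191 with PA, 427 and 454 with ABA and 223 and 192 in mock, and TMAC2 were at the mock level.

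Among 19 other ABA-related transcription factors that were tested, 16 were lower with PA than with ABA and 1, HB5, was higher. Of all genes 12.6% were lower and 7.34% higher. HB-7 and HB-12, homeodomain factors of water deficit, kept 15.5% and 16.9% of the response, and RD26, a NAC factor of dehydration, kept 11.6%. RD26 had 353 and 491 normalized counts with PA, against 2809.6 and 2673 with ABA and 110.3 and 126 in mock. Its relative NAC019 lost the response, with 12.8 and 14.03 with PA, 244 and 228 with ABA and 6.13 and 11.99 in mock. The heat shock factors HSFA6A and HSFA6B split: HSFA6B had 82.2 and 108 with PA, 466 and 528 with ABA and 5.11 and 6.54 in mock, whereas HSFA6A had 87.3 and 53.8 with PA, 933 and 766 with ABA and 26.6 and 39.2 in mock. PA was called over mock only at HSFA6B, and whether the pair differ in the share kept was not tested. NAP was no longer called against ABA without PA a (0.0541) or ABA a (0.0553), NAC055 without PA a (0.0641) or ABA a (0.0625), and MYB44 without PA a (0.0741) or ABA a (0.0672). NAC083 lost its call without any single PA or ABA library (0.085 to 0.19), and HB5 without any single PA or ABA library (0.106 to 0.179).

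Of 8 tested genes of ABA catabolism and conjugation 4 were lower and 1 higher with PA than with ABA. Of 6 tested genes of ABA synthesis 4 were lower and none higher, beside 12.6% and 7.34% of all genes. CYP707A1 (AT4G19230), one of the ABA 8′-hydroxylases that form PA, had 569 and 544 normalized counts with PA, against 2616 and 3063 with ABA and 100.1 and 94.8 in mock. It stayed well above mock with PA and 16.7% of the ABA response was kept. CYP707A2, CYP707A3 and CYP707A4 lost the response, with CYP707A2 at 77.9 and 94.7 with PA, 384 and 376 with ABA and 60.3 and 67.6 in mock. NCED3, the drought-induced dioxygenase of ABA synthesis, had 171 and 173 with PA, 538 and 517 with ABA and 89.9 and 110.1 in mock, and its response counted as lost although both PA libraries were above both mock libraries (adjusted p = 0.123 in the authors' deposited table). UGT71C5, which conjugates ABA to glucose, was lowered by ABA and was the gene called higher with PA, with 295 and 289 with PA, 211 and 203 with ABA and 319 and 323 in mock. AAO3 and ABA1, of the last and an early step of synthesis, kept 20.7% and 30.2% and were not called against mock. The call of CYP707A4 against ABA was lost without PA a (0.0509), PA b (0.0648) or ABA a (0.0759), that of ABA3 without any single PA or ABA library (0.0639 to 0.136), and that of ABA1 without PA a (0.0507) or ABA b (0.0562). ABCG25, an exporter of ABA, had 379 and 399 with PA, 700.2 and 703 with ABA and 211 and 294 in mock and counted as lost.

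Of 21 detoxification genes 14 were raised by ABA in the authors' deposited table (10.3% of all genes). At no member was PA called over mock, beside 1.18% of all genes and 11.3% of tested genes that ABA raised. With PA 14 were lower than with ABA (12.6% of all genes), and 13 lost the response, with 1 not placed. Their median log2 difference was -1.68 and the median share kept was 7.09%. CYP81D8, a cytochrome P450 induced by electrophiles, had 88.2 and 140.3 normalized counts with PA, against 1286 and 832 with ABA and 76.6 and 67.6 in mock. PA lay near mock and ABA stood apart, a log2 difference of -3.21 ± 0.27 (SE; limma adjusted p = 4.78e-05). The glutathione transferase GSTU25 had 41.1 and 33.9 with PA, 455 and 376 with ABA and 40.9 and 20.7 in mock, and GSTU4 had 21.4 and 29.2 with PA, 229 and 243 with ABA and 4.09 and 5.45 in mock. GSTU24, UGT73B4 and UGT73C1 showed the same order, with 12.1%, 5.08% and 12.02% kept. At GSTU4 both PA libraries stood above both mock libraries, although PA was not called against mock. OPR2 lost its call against ABA without PA a (0.0772) or ABA b (0.0774), GSTU22 without PA b (0.156), ABA a (0.072) or ABA b (0.151), and DTX3 without PA b (0.0654), ABA a (0.0759) or ABA b (0.0525). GSTU7 lost it without any single PA or ABA library (0.0645 to 0.241), and GSTU3 without ABA a (0.0809) or ABA b (0.0733). OPR2 overlaps OPR1 on the same strand, and the tandem GSTU genes are similar in sequence, so reads may be split among them.

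Some genes had no read in a group, and their folds are bounds against 3 reads over the group. AT3G54530 had 0 and 0 normalized counts with PA, against 56.5 and 44.1 with ABA and 0 and 0 in mock, so that ABA was at least 33.1-fold higher than PA. MYB121, a transcription factor with no read in mock, had 8.56 and 18.7 with PA, 124 and 171 with ABA and 0 and 0 in mock: ABA was at least 93.1-fold and PA at least 8.61-fold higher than mock. CSLG2, a cellulose synthase-like gene, had 32.5 and 23.4 with PA, 253 and 176 with ABA and 0 and 0 in mock, at least 17.7-fold higher with PA than mock. The cytokinin hydroxylase CYP735A2 had 11.99 and 5.85 with PA, 0 and 0 with ABA and 144 and 34.9 in mock, at least 5.68-fold higher with PA than with ABA. These genes had few reads in the lower group, and their limma differences depend on the added count of 1.

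Genes of suberin, the lipid barrier of root endodermis and wounds, kept a median of 29.2% of the ABA response. Of 14 members ABA raised 11 (10.3% of all genes), and PA was called over mock at 8 of those. Beside this stand 1.18% of all genes and 11.3% of the tested genes that ABA raised. ABCG6, a transporter of suberin precursors, had 333 and 374 normalized counts with PA, against 625 and 1146 with ABA and 45.97 and 17.4 in mock. ASFT, which esterifies ferulate to suberin lipids, had 447 and 409 with PA, 599 and 1144 with ABA and 81.7 and 62.1 in mock. GPAT7, an acyltransferase, had 44.5 and 50.3 with PA, 127 and 219 with ABA and 1.02 and 1.09 in mock, and MYB41, a regulator of suberin synthesis, had 27.4 and 33.9 with PA, 95.7 and 138 with ABA and 1.02 and 0 in mock. At ABCG6 and CYP86B1 PA was not told apart from ABA (log2 intervals -2.24 to -0.28 and -1.94 to 0.28), while KCS2, with 575 and 754 with PA, 3580.3 and 3726 with ABA and 136 and 133 in mock, stood well below ABA. The ABA pair was uneven at most of these genes, and the call of GPAT5 against ABA was lost without PA a (0.11), PA b (0.0813) or ABA b (0.14), that of MYB41 without any single PA or ABA library (0.0919 to 0.198), that of GPAT7 without PA a (0.102), PA b (0.0776) or ABA b (0.157) and that of ASFT without PA a (0.115), PA b (0.164) or ABA b (0.191).

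**Figure D3:**
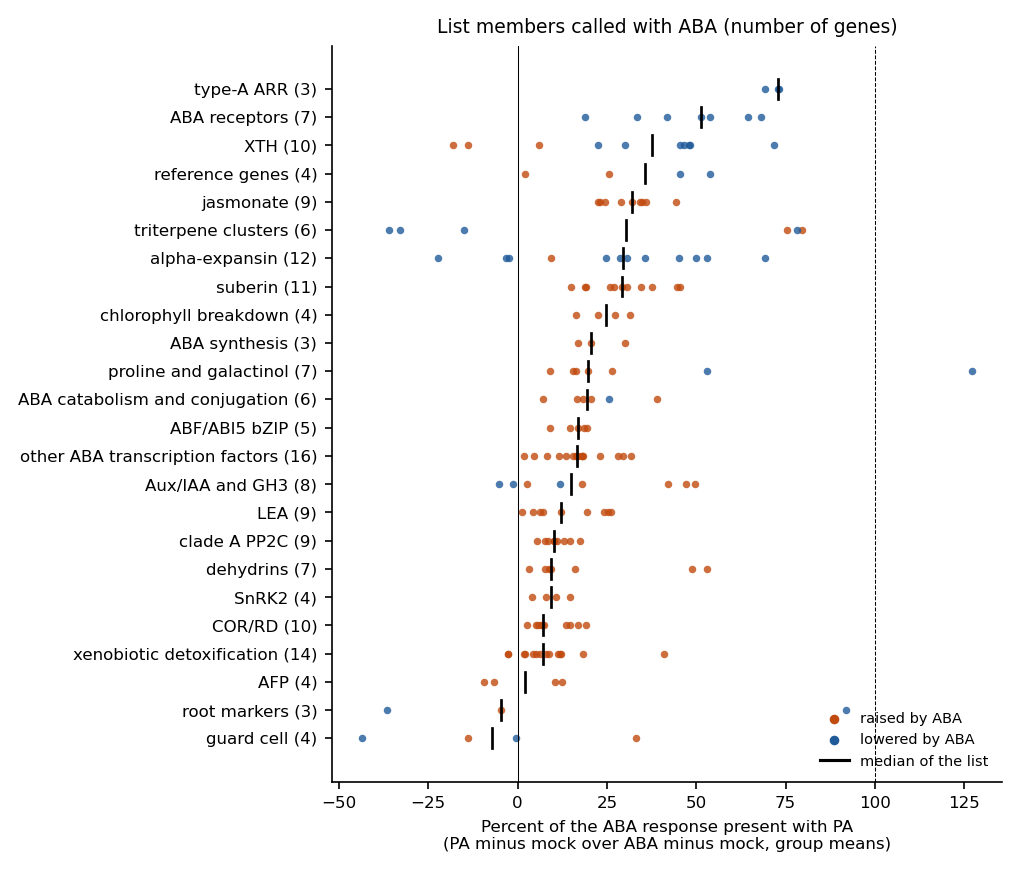
Share of the ABA response kept with PA (horizontal axis, percent of the ABA minus mock difference) for the ABA-called members of each gene list, 1 point per gene (orange for genes that ABA raised, blue for genes it lowered) with the list median as a black line, the number of such genes in parentheses and a dashed line where PA equals ABA. On this scale of normalized counts the COR/RD genes have a median of 7.14% and the suberin genes one of 29.2%.

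Of 7 genes of a pair of root triterpene clusters on the same chromosome, ABA raised 2 of the marneral cluster and lowered 4 of the thalianol cluster. Over all genes ABA raised 10.3% and lowered 5.12%. In the marneral cluster, MRN1, the marneral synthase, had 635 and 447 normalized counts with PA, against 505 and 841 with ABA and 38.8 and 17.4 in mock, and CYP705A12, a P450 of the cluster, had 238 and 199 with PA, 198 and 329 with ABA and 90.9 and 66.5 in mock. PA and ABA overlapped at both, 79.5% and 75.4% of the response was kept, and the log2 intervals of PA minus ABA were -1.07 to 0.49 and -0.76 to 0.30. The third marneral gene, CYP71A16, a P450, was not called in any of the 3 comparisons and leaned higher with PA than with ABA, with 136 and 67.8 with PA, 20.9 and 60.02 with ABA and 79.7 and 27.3 in mock (log2 interval 0.12 to 2.71). In the thalianol cluster, THAS1, the thalianol synthase, had 647 and 355 with PA, 90.5 and 115 with ABA and 433 and 373 in mock. THAH and THAD, the P450s that act on thalianol, had 639 and 437 with PA, 126 and 164 with ABA and 581 and 392 in mock and 1045 and 579.9 with PA, 136 and 212 with ABA and 747 and 541 in mock. ABA lowered these genes, and the PA libraries lay on both sides of the mock values at THAS1, a log2 difference from ABA of 2.22 ± 0.24 for THAS1 (SE; limma adjusted p = 2.06e-04). THAA1, an acyltransferase, was higher than with ABA but lost that call without any single PA or ABA library (0.0782 to 0.224).

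At a few other raised genes PA was not called below ABA, and at 1 it was called above. OSM34 (AT4G11650), an osmotin-like defence protein, was the only gene called over mock with both compounds and higher with PA than with ABA, with 563 and 498 normalized counts with PA, against 269 and 231 with ABA and 171 and 116 in mock. No group overlapped another, and PA was 2.12 times ABA (log2 1.08 ± 0.20, SE; limma adjusted p = 0.0045). AT4G10500, an oxidoreductase-type gene, had 61.7 and 80.7 with PA, 113 and 152 with ABA and 0 and 4.36 in mock, and AT5G08250, a P450, had 31.7 and 46.8 with PA, 48.7 and 89.4 with ABA and 3.06 and 1.09 in mock; neither was told apart between PA and ABA, although both PA libraries lay below both ABA libraries. The oleosin OLEO2, a seed oil-body protein, had 209 and 205 with PA, 281 and 306 with ABA and 37.8 and 93.8 in mock and kept 61.9%. No seed storage or oleosin gene was called between PA and ABA, out of 7 tested of 11, beside 19.9% of all genes. The storage albumin SESA1 differed between the mock libraries, at 25.7 and 8.18 with PA, 19.1 and 17.1 with ABA and 3.06 and 93.8 in mock.

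Cell wall loosening genes that ABA lowered mostly lost the fall with PA. Of 19 alpha-expansins 17 were tested, and 11 were higher and 1 lower with PA than with ABA, beside 7.34% and 12.6% of all genes. Of the 11 that ABA lowered, 10 lost the fall. EXPA8 (AT2G40610) had 3469.9 and 3453 normalized counts with PA, against 892 and 963 with ABA and 3291 and 3516 in mock. The PA libraries fell within the mock range, and PA was 3.73 times ABA (log2 1.90 ± 0.07, SE; limma adjusted p = 1.19e-06). EXPA3 had 1435 and 1191 with PA, 531 and 577 with ABA and 1249 and 1331 in mock, whereas EXPA1, with 4527 and 4351 with PA, 1401 and 1515 with ABA and 8186 and 5619 in mock, kept 45.3% of its fall without being called against mock. EXPA16 ran the other way: it had 151 and 149.6 with PA, 1368 and 1124 with ABA and 28.6 and 44.7 in mock and was called over mock with both compounds. The call of EXPA11 was lost without PA a (0.0595) or ABA a (0.0619), that of EXPA4 without PA a (0.0528), and that of EXPA5 without PA a (0.119) or ABA a (0.118). EXPA13 lost its call without any single PA or ABA library (0.0812 to 0.139), and EXPA9 without PA a (0.14), PA b (0.0666) or ABA a (0.146).

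Of 33 XTH genes, which cut and rejoin xyloglucan in the wall, 26 were tested, 8 were higher and 5 lower with PA than with ABA, beside 7.34% and 12.6% of all genes. XTH31 had 492 and 276 normalized counts with PA, against 80.03 and 108 with ABA and 525 and 492 in mock, with 29.98% of its fall kept. XTH23, raised by ABA, had 26.5 and 39.7 with PA, 206 and 189.8 with ABA and 39.8 and 66.5 in mock, so its PA libraries stood at or below mock. XTH18 was the only gene called lower with PA and not called with ABA, with 47.95 and 38.6 with PA, 103 and 152 with ABA and 123 and 118 in mock (PA against mock -1.47 on the log2 scale, adjusted p = 9.06e-04 in the authors' deposited table). PA was also lower than ABA there, by a log2 difference of -1.52 ± 0.27 (SE; limma adjusted p = 0.0038), a call lost in the normal test (its adjusted p = 0.589). XTH33 lost its call against ABA without PA b (0.256), ABA a (0.213) or ABA b (0.0517), XTH28 without any single PA or ABA library (0.0509 to 0.253), and XTH17 without PA a (0.134), PA b (0.0794) or ABA a (0.163). XTH15 lost it without PA a (0.0735), PA b (0.14) or ABA a (0.153), and XTH22 without PA a (0.0795) or ABA a (0.123).

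**Figure D4:**
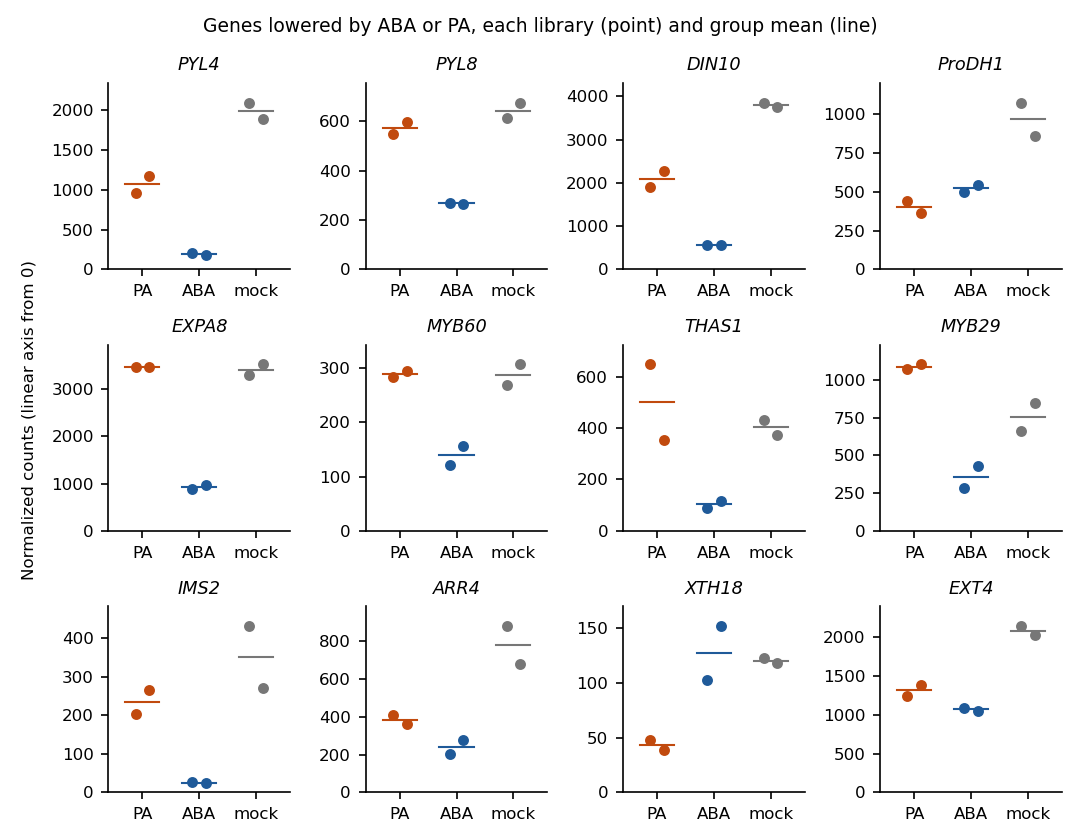
Normalized counts per library (linear axes from 0) with PA, ABA and mock for genes lowered by ABA or PA, 1 point per library and a line at each group mean. PYL4 lies midway with PA, EXPA8 lies at the mock level with PA, and MYB29 lies above mock with PA and below it with ABA.

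Of 7 tested type-A response regulators, cytokinin-induced genes, ABA lowered 3, and PA was called below mock at 1 of these. Over all genes ABA lowered 5.12%, PA was called below mock at 0.146%, and PA was called higher than ABA at 7.34%. Among tested genes that ABA lowered, PA was called below mock at 2.77%. ARR4 had 409 and 360.1 normalized counts with PA, against 202 and 276 with ABA and 882 and 681 in mock, and PA was called below mock there in the authors' deposited table. ARR5 and ARR7 had 75.4 and 53.8 with PA, 25.2 and 31.8 with ABA and 179 and 113 in mock and 95.9 and 54.9 with PA, 26.1 and 35.5 with ABA and 252 and 138 in mock. The shares kept were 73.1%, 69.3% and 72.9%, yet ARR5 and ARR7 counted as lost because PA was not called against mock. All 3 were higher with PA than with ABA, of 7 tested and 10 listed, and the call was lost for ARR4 without PA a (0.117), PA b (0.0504) or ABA a (0.119), for ARR5 without PA a (0.103) or ABA a (0.0882) and for ARR7 without PA a (0.247), ABA a (0.201) or ABA b (0.0763). Of 14 tested Aux/IAA and GH3 genes, early auxin targets, 4 were higher and 4 lower with PA, beside 7.34% and 12.6% of all genes. IAA7 had 3344 and 3061 with PA, 2037 and 2126 with ABA and 2942 and 3349 in mock, at the mock level with PA. Of these 8 calls, those of IAA7 and IAA4 held without each library in turn. IAA6 lost its call without PA a (0.0687), PA b (0.0712) or ABA a (0.0625), IAA13 without any single PA or ABA library (0.0689 to 0.173), and IAA14 without any single PA or ABA library (0.115 to 0.202). IAA19 lost it without any single PA or ABA library (0.0701 to 0.182), GH3.2 without PA a (0.125), PA b (0.147) or ABA a (0.229), and GH3.3 without PA a (0.0608), PA b (0.127) or ABA b (0.142).

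Aliphatic glucosinolate genes, which build defence compounds from methionine, were listed after IMS2 and MYB29 had been seen and so support nothing by their count. Of 21 genes 20 were higher with PA than with ABA and none was lower, beside 7.34% and 12.6% of all genes. Their median log2 difference was 1.35. MYB29 (AT5G07690), a regulator of the pathway, had 1071 and 1102 normalized counts with PA, against 285 and 429.9 with ABA and 664 and 847 in mock. No group overlapped another: in the authors' deposited tables PA was above mock by 0.52 (log2, adjusted p = 0.0286) and ABA was at -1.08 (adjusted p = 0.0031). This was the only reversed gene, and no gene was reversed at a deposited adjusted p under 0.01 or when limma replaced the deposited calls. BCAT4, the aminotransferase that opens chain elongation, had 2447 and 2404 with PA, 578 and 947 with ABA and 1387 and 1934 in mock, and CYP79F1, which makes the aldoximes, had 4724 and 4449 with PA, 1235 and 2064 with ABA and 2174 and 3433 in mock. CYP79F1 and CYP79F2 are near-identical neighbours. In the authors' deposited tables ABA lowered 13 of the 21 (5.12% of all genes), and PA raised only MYB29 (1.18% of all genes). Calls against ABA held for all 20 in the 4 fits that left out a PA or ABA library.

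In all, 9 genes were called higher with PA and not with ABA. AT1G14120, an oxidoreductase-type gene, had 486 and 414 normalized counts with PA, against 237 and 273 with ABA and 283 and 259 in mock. AK3, an aspartate kinase, had 1966 and 1915 with PA, 859 and 1243 with ABA and 1018 and 1423 in mock. At both PA was also higher than ABA (limma adjusted p = 0.00105 and 0.00921), but the call of AK3 was lost without PA a (0.0666), PA b (0.0573) or ABA a (0.078) and in the normal test (its adjusted p = 0.177). LAC7, a laccase, shows the other case: it had 1086 and 950.5 with PA, 625 and 963 with ABA and 440.3 and 210.4 in mock, and PA and ABA were not told apart (log2 interval -0.43 to 1.21). AT1G74460, AT5G10770 and AT3G27884 were likewise not told apart from ABA (adjusted p = 0.701, 0.179 and 0.273).

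Of 9 guard cell genes ABA lowered MYB60 and KAT1 and raised 2, beside 5.12% and 10.3% of all genes. With PA 3 were higher and 2 lower than with ABA, beside 7.34% and 12.6% of all genes. MYB60, a regulator of stomatal opening, had 283 and 293 normalized counts with PA, against 122 and 157 with ABA and 269 and 306 in mock. KAT1, an inward potassium channel, had 471 and 465 with PA, 242 and 293 with ABA and 369.8 and 445 in mock, with both PA libraries above both mock libraries. Both were higher with PA than with ABA, by 1.05 ± 0.14 and 0.81 ± 0.13 (log2, SE). GORK, the outward channel of stomatal closure, was called over mock with both compounds, with 202 and 210.4 with PA, 372 and 443 with ABA and 105 and 107 in mock. SLAC1, the anion channel, was called in neither comparison. FMA, a factor of guard cell fate, was higher with PA and lost that call without PA b (0.0913) or ABA a (0.0942).

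Photosynthesis genes of the leaf leaned higher with PA than with ABA, and most were not called. Of 19 genes for light-harvesting proteins and the small subunit of Rubisco, 2 were called higher with PA than with ABA, beside 7.34% of all genes. The list spanned log2 differences of 0.07 to 0.78, with a median of 0.41, against -0.01 over all genes tested. RBCS1B had 9022 and 8026 normalized counts with PA, against 5686 and 6132 with ABA and 11712 and 10511 in mock. LHCB1.2 was no longer called without PA a (0.0638), PA b (0.179) or ABA a (0.196). Of 8 chlorophyll breakdown genes 4 were lower with PA, beside 12.6% of all genes. PAO, the oxygenase that opens the ring, had 1061 and 1150.4 with PA, 2144 and 1985 with ABA and 914 and 922 in mock. NYC1 was no longer called without PA b (0.293), ABA a (0.0597) or ABA b (0.262), and PPH without any single PA or ABA library (0.127 to 0.184).

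Of 21 tested jasmonate genes 4 were lower and 1 higher with PA, and of 13 clock genes 3 were lower, beside the 12.6% and 7.34% of all genes. Of 9 reference genes of quantitative PCR 2 were lower and 1 higher, and of 5 root markers 1 was lower and 1 higher, beside the same shares. JAZ1, a repressor of that pathway, lay between mock and ABA with 323 and 399 with PA, 967 and 939 with ABA and 203 and 161 in mock. The other jasmonate calls were lost, MYC2 without PA a (0.0561), JAZ6 without PA b (0.281), ABA a (0.161) or ABA b (0.16), JAZ12 without PA b (0.069), ABA a (0.0521) or ABA b (0.0633) and VSP1 without PA a (0.16), PA b (0.102) or ABA b (0.21). The clock genes ELF3, ELF4 and TOC1 were lower with PA, and the call was lost for ELF3 without PA a (0.0946), PA b (0.156) or ABA a (0.194), for ELF4 without PA b (0.176), ABA a (0.0882) or ABA b (0.133) and for TOC1 without PA a (0.0595), PA b (0.118) or ABA a (0.137). Of 9 genes used as references in quantitative PCR, SAND and UBQ10 were lower and ACT2 higher with PA than with ABA, and the call was lost for SAND without any single PA or ABA library (0.0736 to 0.0962), for UBQ10 without PA b (0.109), ABA a (0.0555) or ABA b (0.0937) and for ACT2 without PA a (0.24), ABA a (0.132) or ABA b (0.153). The root markers RCI3 and IRT1 were called in opposite directions, RCI3 lower with PA, and lost the call without any single PA or ABA library (0.0512 to 0.0814) for RCI3 and PA a (0.0748) for IRT1. IRT1, the iron transporter of the root epidermis, had 10.3 and 3.51 with PA, 0 and 0 with ABA and 124 and 45.8 in mock, and its mock libraries were uneven. The part of root content in the results for root genes was not tested.

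The ABRE core was more frequent before genes that ABA raised than before all genes, in each class of PA response. ACGTG occurred on either strand in the 250 bases before the start at 23.9% of 19603 promoters of tested genes (95% exact binomial interval 23.3% to 24.5%). The share was 52.2% (45.5% to 58.9%) at the raised genes that lay between mock and ABA, 39.6% (25.8% to 54.7%) at those not told apart from ABA, and 36.6% (34.4% to 38.9%) at those lost. At lowered genes that were lost it was 19.5% (16.9% to 22.2%). The longer core ACGTGNC was found at 27.2% of the raised genes between mock and ABA, 18.1% of those lost and 9.79% of all. CCACC, another ABA-response motif that does not hold ACGTG, was found at 23.2%, 17.3% and 17.1%. The classes also differ in the size of the ABA response, as given above, and the part of that size in the motif shares was not tested. The intervals cover counting error only, and genes are not replicates.

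**Figure D5:**
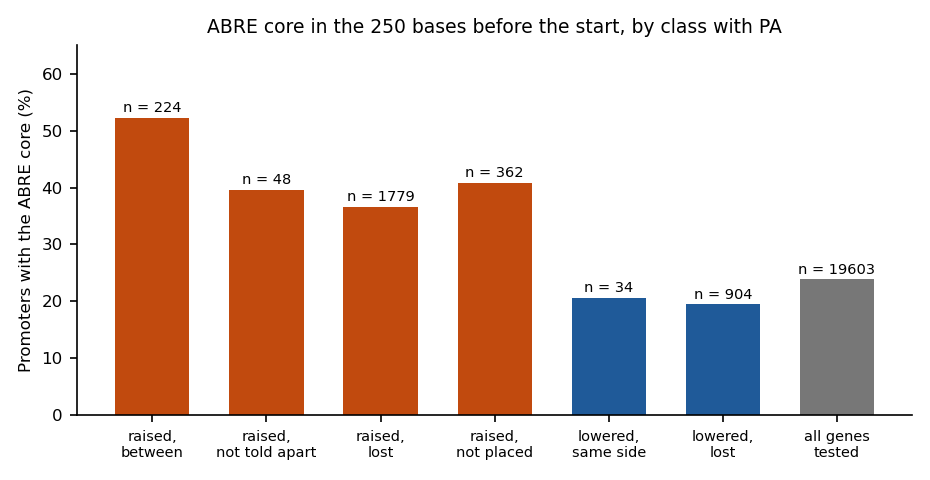
Percent of promoters holding the ABRE core on either strand in the 250 bases before the start (vertical axis) by class of the ABA response with PA, beside all genes tested. ACGTG stands at 52.2% before raised genes between mock and ABA, 36.6% before lost genes and 23.9% before all genes.

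The authors also deposited a list of genes shared by PA and ABA and a list for PA alone. In the shared list as held here, 333 loci were in the limma fit, of which 237 were lower and 31 higher with PA than with ABA. Of all genes 12.6% were lower and 7.34% higher. These counts are not split by direction with ABA, and for a gene that ABA lowered, lying higher with PA means a smaller fall. Over all genes of the deposited tables of the authors, an adjusted p under 0.1 with both compounds was held by 362, and 361 of them moved the same way. Among the 12 loci of the PA list, HMT3, a homocysteine methyltransferase, had 217 and 244 normalized counts with PA, against 69.6 and 104 with ABA and 86.8 and 152 in mock. ANNAT7, an annexin, had 61.7 and 61.96 with PA, 49.6 and 102 with ABA and 31.7 and 6.54 in mock, with PA and ABA overlapping.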

How the data were processed

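RNA of whole seedlings was sequenced from 4 groups of 2 libraries (PA, ABA, DPA and mock). Per the submitters' processing notes, TopHat 1.4.1, HTSeq and DESeq 1.8.3 were used with TAIR10. The deposited group means are a signal, normalized counts, per the file headers; the deposited fold changes are a ratio of means; the deposited p-values are the authors' own and are credited to DESeq. Rows naming no gene held 48.2% to 48.5% (no feature) and 0.278% to 0.315% (ambiguous) of the normalized total and were left out. The protocol in the labels does not say that strand was kept.

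Each mean combines whole reads of both libraries, each scaled by its own size factor, and reads were recovered with a relative tolerance of 2e-14; 100% of values had a single split. The planned test for such means, limma 3.58.1 (R 4.3.3, trend, two-sided, Benjamini-Hochberg threshold 0.05), was fitted to log2(normalized count + 1) of 4 groups in 1 fit, with a minimum mean of 10 and 4 residual degrees of freedom. Fold changes on that scale understate changes of low genes. The deposited columns are means of 2 libraries, not counts, and edgeR was not run on the recovered reads.

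Genes were named by a rule: the 8 largest falls and rises with a mean of at least 50, up to 5 per class, reversed and PA-only genes, and members of 28 lists (343 genes, 308 tested). Members and lists were chosen with earlier results of these data known. Positions and promoters are from RefSeq TAIR10.1, in which 31912 loci matched. Alternatives were other pseudocounts, minimum means, scaling, thresholds, voom, a fit of PA and ABA only and fits without each library.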

Additional observations from a re-analysis of the deposited data

Results flagged for a closer look

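Genes called between DPA and mock in the authors' deposited table lie outside the comparison of PA with ABA. AT1G15125 stood at a log2 fold change of 1.04 with DPA (adjusted p = 2.82e-08 in the authors' deposited table), AT3G09250 at -0.74 (0.000137) and AT3G15356 at 0.75 (0.0355). With PA the same genes stood at -0.92, 0.08 and -0.46, and with ABA at -4.40, -0.51 and 0.04, in the authors' deposited tables. AT1G15125 overlaps AT1G15120 on the same strand, and AT3G09250 overlaps PYK10 on the opposite strand.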

How the results depend on the processing

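No paired analysis was possible because the recovered libraries carry no replicate number. Of the 360 named genes 202 were called between PA and ABA. None of those tested in an alternative changed direction, but 43 to 55 lost the call without 1 PA or ABA library, and 84 of the 192 covered lost it in the normal test, which held 348 named genes (305 with a minimum mean of 50). With upper-quartile scaling 2396 genes were higher, and 567 raised and 124 lowered genes were not placed. A fit of PA and ABA alone left 20 raised genes not told apart from ABA and 170 not placed, and voom left 26 not told apart. The normal test on errors implied by the deposited p-values gave 743 lower and 257 higher, 100 raised genes not told apart, 573 lost and 1548 not placed, 227 lowered lost and 956 not placed, and 75 list members lower and 20 higher. At a deposited adjusted p under 0.01, 197 raised genes were not placed, and of lowered genes 17 were called with PA, 13 between, 4 not told apart and 88 not placed, with 0 reversed. At 0.1, 553 raised and 514 lowered genes were not placed. With limma calls against mock, 1118 raised genes were not placed, and of lowered genes 57 were called with PA, 23 not told apart, 1440 not placed and 0 reversed. On the log2 scale the median shares kept were 28.0% and 27.8%.

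Leaving out each library in turn gave 1439 to 2911 lower and 725 to 1876 higher genes. Among raised genes it gave 31 to 85 not told apart from ABA, 1165 to 1924 lost and 217 to 976 not placed. Among lowered genes it gave 590 to 977 lost and 214 to 601 not placed. List members were 95 to 137 lower and 28 to 65 higher, and the median shares kept 15.2% to 20.0% and 33.4% to 36.6%. With limma calls against mock, a choice made after seeing the data, leaving out each library gave for raised genes 119 to 685 called with PA, 96 to 540 between, 21 to 144 not told apart, 1232 to 2219 lost and 644 to 1840 not placed. For lowered genes it gave 8 to 350 called with PA, 6 to 152 between, 2 to 194 not told apart, 698 to 1528 lost and 778 to 1792 not placed, with 0 to 6 reversed and 1 to 67 called with PA only. Leaving out mock b gave the highest counts called with PA, between, not told apart, reversed and PA only, leaving out PA a the highest not placed and leaving out mock a the highest lost; the cause was not tested. With 2 libraries per group, the depth and spread limit small differences.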
